A study of Homo sapiens with 15 samples.

Results

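The mature miRNAs miR-671-5p (listed as hsa-miR-671-5p), miR-671-3p (hsa-miR-671-3p) and miR-7-5p (hsa-miR-7-5p) were followed across the 5 groups of a miRNA-Seq experiment in U87-MG, an established human glioblastoma cell line. They are 3 of the 1707 mature miRNAs counted in each library and were chosen by name, as products of the miR-671 hairpin and of the miR-7 hairpins, whose 5p miRNAs pair with the circular RNA CDR1as. They were also picked because miR-671-5p had differed between the cells with a single knockout in these same libraries, so the levels of miR-671-5p in those cells are described here without a test. Control cells, which carried no interference with either HIF gene, were kept for 24 h in 21% O2 (normoxia) or in 1% O2 (hypoxia). Cells with a knockout of HIF1A (HIF1α-KO), of the HIF2α gene (HIF2α-KO) or of both genes (HIF1α/HIF2α-KO) were kept in 1% O2 for 24 h. The knockouts were made with lentiviral CRISPR/Cas9 and sgRNAs, and whether a knockout line was a pool or a clone was not stated in the sources used here. Each group had 3 libraries. Nothing in the labels says that they came from separate cultures, so p-values measure the spread between these libraries, which may be technical.

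HIF1α and HIF2α are the oxygen-regulated subunits of the hypoxia-inducible transcription factors. A miRNA guides an Argonaute protein to RNAs that pair with its seed, bases 2 to 8 from its 5′ end, and most such pairing lowers the output of the target without cutting it. CDR1as, also called ciRS-7, is a circular RNA best known from the brain. It holds many seed matches for miR-7, a miRNA known to repress the growth factor receptor EGFR, and it has a site for miR-671-5p with pairing so extensive that Argonaute cuts the circle there. miR-671-3p is the strand from the other side of the same hairpin as miR-671-5p.

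The mature sequences are shown because their seeds set which RNAs each can pair with, and the capitals mark the seed. They come from RefSeq on GRCh38.p14, in which 1545 of the 1707 miRNAs (90.5%) were matched by name. miR-671-5p lies at chr7:151238449-151238471 and miR-671-3p at chr7:151238488-151238508, both on the plus strand. miR-7-5p lies at chr9:83969811-83969834 on the minus strand and at chr19:4770700-4770723 on the plus strand. miR-7-1-3p, the other strand of the chromosome 9 hairpin, lies at chr9:83969771-83969792.
miR-671-5p: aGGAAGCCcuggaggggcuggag
miR-671-3p: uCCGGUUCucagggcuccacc
miR-7-5p: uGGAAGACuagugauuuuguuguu
miR-7-1-3p: cAACAAAUcacagucugccaua

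The seeds of miR-671-5p and miR-7-5p were the same at 6 of their 7 positions. The difference was C7A, with the base of miR-671-5p first and positions counted from 1 at the 5′ end of the miRNA. None of the other matched miRNAs shared a whole seed with a member. Bases 2 to 6 of these seeds also occurred in miR-3202, miR-4533 and miR-6077, which had 32, 2 and 2 counts over all 15 libraries and were too scarce to be tested. The members differed in base composition. GC bases made up 69.6% of miR-671-5p and 66.7% of miR-671-3p, but 33.3% of miR-7-5p.

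The hairpin of miR-671 is printed with the arms in capitals, since the balance of its arms is described below. It spans chr7:151238421-151238538 and lies in a coding exon of CHPF2 in both of the GENCODE transcripts that span it.
MIR671: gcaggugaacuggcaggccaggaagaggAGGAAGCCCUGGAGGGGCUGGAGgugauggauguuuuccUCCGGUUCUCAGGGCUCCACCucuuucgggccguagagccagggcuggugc

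The same miR-7-5p is cut from 3 hairpins, so its count is a sum that cannot be split among them. MIR7-1 (chr9:83969748-83969857) lies in HNRNPK, which encodes an RNA-binding protein, and overlapped an exon in 1 of the 7 transcripts that span it. MIR7-3 (chr19:4770670-4770779) lies in an intron of the lincRNA MIR7-3HG in all 9 transcripts that span it. MIR7-2 (chr15:88611825-88611934) overlapped only MIR3529, on the opposite strand, and holds the 24 bases of miR-7-5p at its nucleotides 32 to 55.

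CDR1as itself was not measured, because the assay counted mature miRNAs only. RefSeq gives CDR1as as another name of LINC00632 (chrX:140709562-140793215, plus strand), and the letters of its GENCODE transcripts were searched for the reverse complement of each seed, GTCTTCC for miR-7-5p and GGCTTCC for miR-671-5p, on the transcribed strand. Of 25 LINC00632 transcripts, 5 held GTCTTCC. The 1878-nt transcript ENST00000625883.2 held it 67 times, whereas no transcript of another gene held it more than 37 times. At least 1 such match occurred in 11.5% of all 206694 transcripts and in 15.4% of the 23771 whose length was within 20% of this one. GGCTTCC occurred 2 times in the same transcript. The best ungapped site for miR-671-5p ran from nucleotide 1373 to 1395 and was complementary at 19 of 23 positions, a number reached in 0.043% of all transcripts. It is printed because it is the letter-level basis of the partnership, with the match to the seed in capitals.
miR-671-5p site: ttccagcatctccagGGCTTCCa

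Libraries held 10360337 to 22496373 counts. Levels are given as CPM, counts scaled to the library total times a TMM factor that corrects for composition. The factors ranged from 0.898 to 1.09 and also scale every fold change. The 3 members were well above the detection floor of 3 counts (at most 0.290 CPM, counting error only) and all passed the filter that left 562 miRNAs. miR-7-5p ranked 18th by mean level, with 36447 to 220744 counts per library, miR-671-3p 86th with 1617 to 6062 counts, and miR-671-5p 135th with 585 to 1665 counts. The miRNAs taken as markers of a glioblastoma line (miR-21-5p, miR-10b-5p, miR-221-3p and miR-222-3p, all 4 found) summed to 198096 to 301253 CPM. Of the blood and muscle markers, only miR-223-3p and miR-206 had at most 3 counts in every library. The whole blood list summed to 4.45 to 22.8 CPM and the whole muscle list to 1.63 to 45.1 CPM. The neuron list summed to 4038 to 11559 CPM. The endothelial miR-126 (its 3p and 5p strands summed) divided the libraries into 9 with 14.0 to 50.8 CPM and 6 with 4.01 to 6.64 CPM. The 6 were replicates 2 and 3 of hypoxic control cells, 1 and 2 of HIF1α-KO, 2 of HIF2α-KO and 3 of HIF1α/HIF2α-KO cells. The part of this division in the results was not tested beyond its use as a covariate. In these bulk samples, a lower level per cell and fewer cells holding a miRNA cannot be told apart.

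The level of miR-671-5p, the strand that pairs with the cleavage site in CDR1as, was highest in HIF2α-KO cells. It was 95.7, 158 and 84.7 CPM in the 3 HIF2α-KO libraries (113 ± 39.8, SD, n = 3) and 47.7, 39.3 and 63.6 CPM in the HIF1α-KO libraries (50.2 ± 12.4, SD, n = 3). The groups did not overlap, and the ratio of the levels in the edgeR fit was 2.25 (log2 fold change 1.17, standard error 0.25), larger in size than for 96.8% of the miRNAs tested. This is the difference that led to its choice. Of all 562 miRNAs, 11% did not overlap in this direction and 1.07% had an adjusted p under 0.05 in either direction. Hypoxic control cells stood between, at 73.3, 56.1 and 51.5 CPM (60.3 ± 11.4, SD, n = 3), and overlapped with HIF1α-KO cells but not with HIF2α-KO cells (9.07% of miRNAs higher without overlap). Against these controls, the fitted difference on the log2 scale was 0.91 (standard error 0.24) in HIF2α-KO and -0.27 (standard error 0.24) in HIF1α-KO cells, 2 values that share the control libraries.

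One HIF2α-KO library, replicate 2, carried much of this. Without it the log2 fold change was 0.79 from HIF1α-KO and 0.56 from hypoxic control cells. That library was also the only HIF2α-KO library among those with less miR-126. The other 5 such libraries had 39.3 to 56.2 CPM of miR-671-5p, and the libraries with more miR-126 had 61.3 to 95.7 CPM.

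Loss of both factors did not go with a detectable difference in miR-671-5p from hypoxic control cells. HIF1α/HIF2α-KO libraries had 61.3, 76.4 and 56.2 CPM (64.6 ± 10.5, SD, n = 3), which overlapped with the control values. The log2 fold change was 0.10 (95% interval -0.42 to 0.62), with an adjusted p of 0.849 in the quasi-likelihood test of edgeR and p = 0.5 in the two-sided exact permutation test. In this comparison 5.87% of miRNAs had an adjusted p under 0.05. As a description, the level in HIF1α/HIF2α-KO cells was below that of all HIF2α-KO libraries (log2 fold change -0.81, standard error 0.24, and -0.47 without replicate 2 of HIF2α-KO), where 11.7% of miRNAs were lower without overlap. With CPM by library totals these groups overlapped. Its difference from HIF1α-KO cells was 0.37 on the log2 scale (standard error 0.24).

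In control cells, miR-671-5p was lower in each hypoxic than in each normoxic library. Normoxic libraries had 82.6, 84.1 and 78.0 CPM (81.6 ± 3.18, SD, n = 3). From normoxia to hypoxia its log2 fold change was -0.44 (95% interval -0.96 to 0.086) and did not pass, with an adjusted p of 0.724 in edgeR. With 3 libraries a group, p cannot go below 0.1 in a two-sided exact permutation test, and it was 0.1 here (0.286 after Benjamini-Hochberg adjustment over 20 such tests). Without overlap, 9.96% of miRNAs were lower, and 0% had an adjusted p under 0.05, with 6.23% at an unadjusted p under 0.05. With CPM by library totals the highest hypoxic library (74.9 CPM) passed the lowest normoxic one (74.4 CPM). All normoxic libraries had more miR-126, as did the hypoxic one nearest to them.

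**Figure D1:**
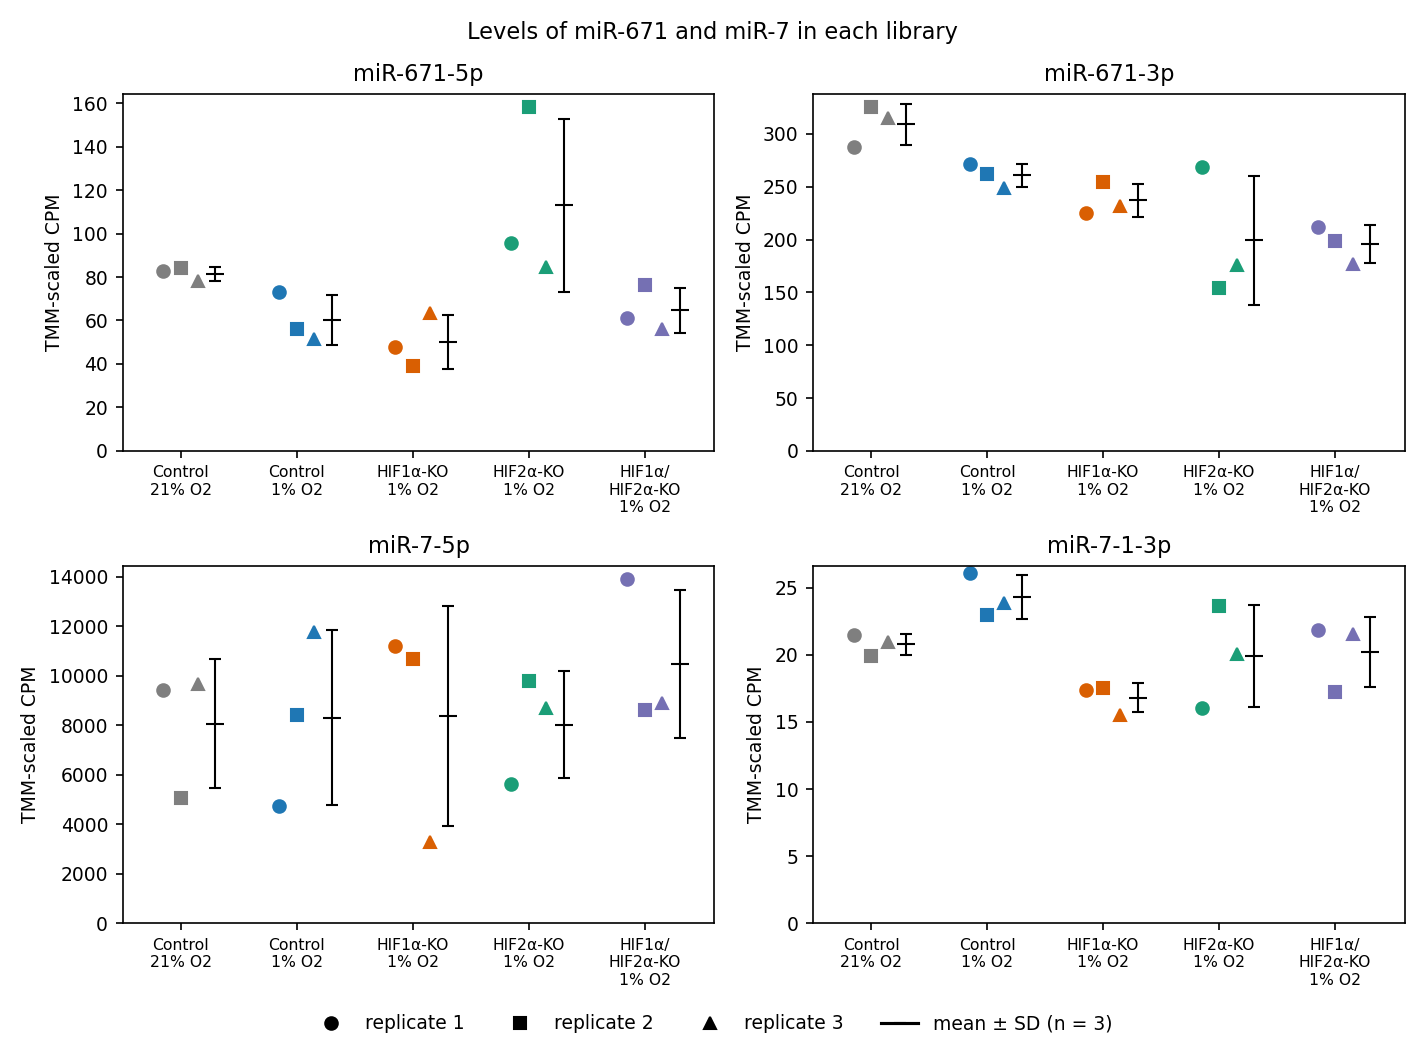
TMM-scaled CPM of miR-671-5p, miR-671-3p, miR-7-5p and miR-7-1-3p in each of the 15 libraries by group, with a marker for each replicate number and a bar for the mean ± SD (n = 3). The HIF2α-KO libraries of miR-671-5p, from 84.7 to 158 CPM, lie above the hypoxic controls, while the miR-7-5p values of all groups overlap.

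The partner strand miR-671-3p parted from miR-671-5p in HIF2α-KO cells, where its mean was below and not above that of hypoxic control cells. It had 287, 325 and 315 CPM in normoxic control cells (309 ± 19.6, SD, n = 3) and 271, 262 and 249 CPM in hypoxic control cells (261 ± 11.2, SD, n = 3), without overlap, as for 9.96% of miRNAs. The log2 fold change was -0.25 (95% interval -0.62 to 0.12, adjusted p = 0.791 in edgeR, two-sided exact permutation p = 0.1), so it did not pass.

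In HIF1α/HIF2α-KO cells miR-671-3p had 212, 199 and 177 CPM (196 ± 18.0, SD, n = 3). All 3 were below all hypoxic controls, as 16.7% of miRNAs were. On the log2 scale the difference was -0.41 (standard error 0.17, 95% interval -0.78 to -0.040), with an adjusted p of 0.156 in edgeR, and did not pass over all miRNAs. Its unadjusted p was under 0.05, as for 24.4% of miRNAs in this comparison. The exact permutation p was 0.1, the smallest possible.

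In HIF1α-KO cells miR-671-3p was 225, 255 and 232 CPM (237 ± 15.5, SD, n = 3) and overlapped with the same controls (log2 fold change -0.14, edgeR adjusted p = 0.837). In HIF2α-KO cells it was 269, 154 and 176 CPM (199 ± 61.1, SD, n = 3), the widest spread of any group. Against hypoxic control cells this was a log2 fold change of -0.39 (standard error 0.17), and edgeR gave an adjusted p of 0.316. Its unadjusted p was under 0.05, as for 15.3% of miRNAs, and 0% passed after adjustment. Without replicate 1 of HIF2α-KO, the library at 269 CPM, it was -0.68 and passed, with an adjusted p of 0.0382 in the edgeR fit. The share of all miRNAs that passed without this library is not given here, so the call has no background beside it. With other settings the adjusted p of edgeR and the other tools was 0.193 or more, and it was up to 0.687 without another library. HIF1α/HIF2α-KO cells differed from HIF1α-KO cells by -0.27 (adjusted p = 0.507 in edgeR, without overlap, as 10.9% of miRNAs) and from HIF2α-KO cells by -0.026 (adjusted p = 0.948 in edgeR) on the log2 scale. Between HIF2α-KO and HIF1α-KO cells the difference was -0.25, against 1.17 for miR-671-5p from the same hairpin.

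**Figure D2:**
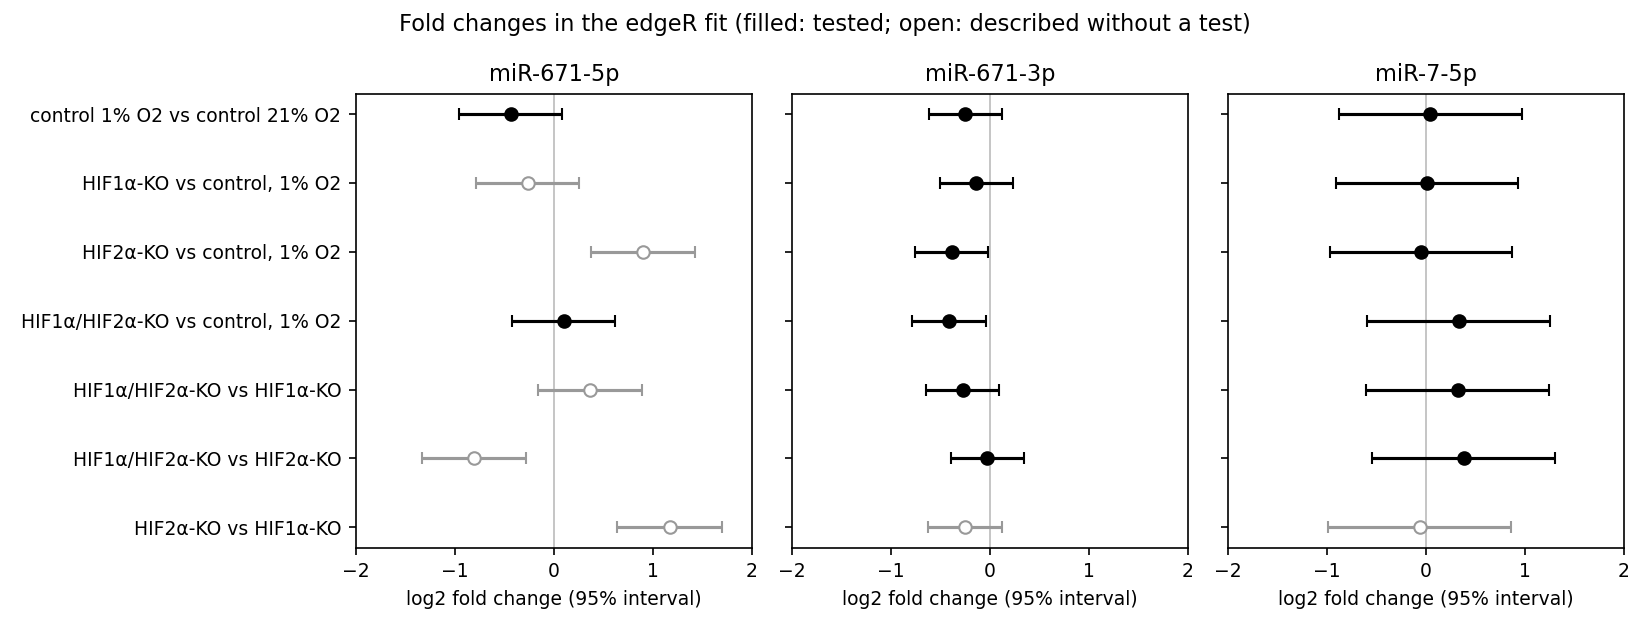
Log2 fold changes (x axis) of the 3 miRNAs in each comparison (y axis) from the edgeR fit of all 15 libraries, with 95% intervals. Filled points were tested and open points are descriptions. None of the filled points had an adjusted p under 0.05, and the intervals of miR-7-5p are the widest.

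Because both strands of miR-671 are counted in one library, their ratio does not depend on scaling between libraries. How efficiently each sequence was captured was not measured, so the ratio is compared between libraries and is not a ratio of molecules. The 5p strand held 22.3%, 20.5% and 19.8% of miR-671 counts in normoxic control cells, and 21.3%, 17.6% and 17.2% in hypoxic control cells. It held 17.5%, 13.4% and 21.5% in HIF1α-KO cells. In each of these libraries the 3p strand had more counts than the 5p strand.

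In HIF2α-KO cells the share of the 5p strand was 26.2%, 50.7% and 32.5% (36.5% ± 12.7, SD, n = 3). The strands were thus nearly level in replicate 2, where the Wilson 95% interval of the share was 49.0% to 52.4% and covers counting error only. This library had both the most miR-671-5p and the least miR-671-3p of all 15. The 5p to 3p ratio was 2.70-fold that of HIF1α-KO cells and 2.45-fold that of hypoxic control cells, without overlap in either case, a description that includes the libraries used for the choice. The background was 142 pairs of 5p and 3p strands that match by name and both passed the filter. Of these pairs, 8.45% and 10.6% had a higher ratio without overlap in these comparisons.

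In HIF1α/HIF2α-KO cells, which were not used for the choice, the 5p share was 22.4%, 27.7% and 24.1% (24.8% ± 2.72, SD, n = 3). All 3 libraries were above all hypoxic control libraries (18.7% ± 2.25, SD, n = 3). The ratio was 1.43-fold higher, a log2 difference of 0.52. By the two-sided exact permutation test p was 0.1, the lowest it can give, and 0.400 after adjustment over 4 tests of ratios. The background was 15.5% of the 142 strand pairs in this direction. From normoxia to hypoxia in control cells the log2 difference was -0.21 (exact permutation p = 0.3). Within hypoxic control and HIF1α-KO cells, the library with more miR-126 had the highest 5p share (21.3% and 21.5%). In HIF2α-KO cells the library with less miR-126 had the highest (50.7%), and in HIF1α/HIF2α-KO cells it had the middle value (24.1%). The part of the miR-126 sets in this ratio was not tested.

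**Figure D3:**
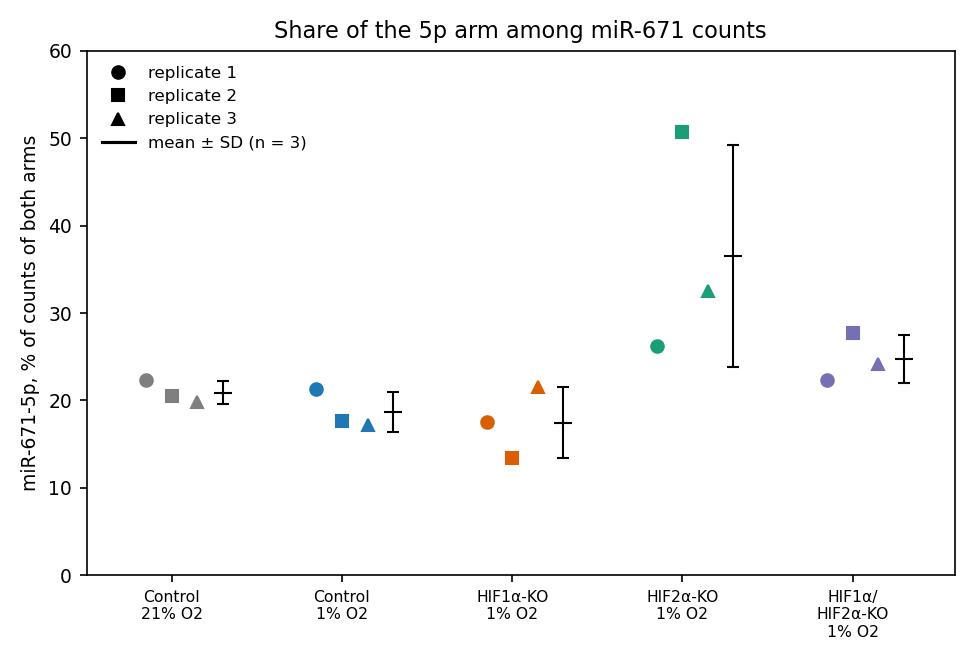
Share of miR-671-5p among the counts of miR-671-5p and miR-671-3p (y axis, percent) in each library by group (x axis), with the mean ± SD (n = 3). The HIF2α-KO libraries lie between 26.2% and 50.7%, and the HIF1α/HIF2α-KO libraries between 22.4% and 27.7%, above the hypoxic controls at 17.2% to 21.3%.

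miR-7-5p, the miRNA with most matches in CDR1as, was abundant in every group and varied more within groups than between them. It had 9438, 5051 and 9679 CPM in normoxic control cells (8056 ± 2605, SD, n = 3) and 4734, 8407 and 11780 CPM in hypoxic control cells (8307 ± 3524, SD, n = 3). It had 11187, 10674 and 3275 CPM in HIF1α-KO cells (8379 ± 4427, SD, n = 3), 5627, 9783 and 8680 CPM in HIF2α-KO cells (8030 ± 2153, SD, n = 3) and 13900, 8623 and 8891 CPM in HIF1α/HIF2α-KO cells (10471 ± 2973, SD, n = 3). Every group overlapped with every other, although with CPM by library totals all HIF1α/HIF2α-KO libraries were above all HIF2α-KO libraries. Library totals moved the median of all miRNAs by 0.20 on the log2 scale in this comparison. The share of all miRNAs without overlap by library totals is not given here. Neighbours in the order of the means did not differ beyond their spread.

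No test of miR-7-5p passed. Its log2 fold change was 0.044 (95% interval -0.88 to 0.97) from normoxia to hypoxia, with an adjusted p of 0.982 in edgeR. Against hypoxic control cells edgeR gave 0.012 in HIF1α-KO (adjusted p = 0.998), -0.049 in HIF2α-KO (adjusted p = 0.981) and 0.33 in HIF1α/HIF2α-KO cells (95% interval -0.59 to 1.26, adjusted p = 0.688). The last of these was 0.072 without replicate 1 of the control, 0.084 without replicate 1 of HIF1α/HIF2α-KO, 0.69 without replicate 3 of the control and 0.73 with the miR-126 sets as a covariate, and it passed in none of these fits. The backgrounds in the first 2 of these knockout comparisons were 1.25% and 0% of miRNAs with an adjusted p under 0.05. HIF1α/HIF2α-KO cells differed by 0.32 from HIF1α-KO cells (adjusted p = 0.796 in edgeR) and by 0.38 from HIF2α-KO cells (adjusted p = 0.676 in edgeR). In these 2 comparisons 1.42% and 1.78% of miRNAs passed. With standard errors of 0.43, differences of less than about 0.9 on the log2 scale lay within the intervals and were not resolved.

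The libraries lowest in miR-7-5p, at 3275, 4734, 5051 and 5627 CPM, were all among the 9 with more miR-126. Others of these 9 had up to 13900 CPM, and the libraries with less miR-126 had 8407 to 11780 CPM. Within hypoxic control cells and within HIF1α-KO cells, the only library with more miR-126 had the least miR-7-5p and the most miR-671-5p. Deviations from the mean over libraries were compared between the 179 tested miRNAs with at least 54.5% GC and the 212 with at most 45.5%. In the same libraries the median of the GC-rich miRNAs was higher by 0.31 and 0.43 on the log2 scale, and in the others of their groups the difference was -0.35 to -0.17. The difference did not follow miR-126 in the other knockouts, where it was 0.26 in the HIF2α-KO library with less miR-126, 0.28 and -0.31 in those with more, and -0.25 to -0.15 in all HIF1α/HIF2α-KO libraries. Among the hypoxic libraries with more miR-126, HIF1α/HIF2α-KO cells had 13900 and 8623 CPM, HIF2α-KO cells 5627 and 8680 CPM, control cells 4734 CPM and HIF1α-KO cells 3275 CPM. Among those with less, HIF1α/HIF2α-KO cells had 8891 CPM, HIF2α-KO cells 9783 CPM, control cells 8407 and 11780 CPM and HIF1α-KO cells 11187 and 10674 CPM.

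The other strand of the MIR7-1 hairpin, miR-7-1-3p, is specific to 1 of the 3 hairpins and was scarce. It had 26.1, 22.9 and 23.9 CPM in hypoxic control cells (24.3 ± 1.61, SD, n = 3) and 21.5, 19.9 and 20.9 CPM in normoxic control cells (20.8 ± 0.79, SD, n = 3). All hypoxic were above all normoxic libraries, as for 7.83% of miRNAs (log2 fold change 0.23, adjusted p = 0.791 in edgeR). It had 17.4, 17.5 and 15.5 CPM in HIF1α-KO cells (16.8 ± 1.08, SD, n = 3), all below the hypoxic controls, as for 11.4% of miRNAs. On the log2 scale they differed by -0.53 (standard error 0.17). The adjusted p was 0.180 in edgeR, and the unadjusted p was under 0.05, as for 11.9% of miRNAs.

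HIF1α/HIF2α-KO cells had 21.9, 17.2 and 21.6 CPM of miR-7-1-3p, also below all hypoxic controls, as for 16.7% of miRNAs (log2 fold change -0.27, edgeR adjusted p = 0.398). The HIF2α-KO libraries had 16.0, 23.6 and 20.0 CPM (log2 fold change -0.29, adjusted p = 0.474 in edgeR). These values overlapped with the controls, and with CPM by library totals they did not. Library totals moved the median of all miRNAs by -0.14 on the log2 scale in this comparison, and the share without overlap by library totals is not given here. The comparisons share the control libraries, and none of them passed. There were 182 to 645 counts of miR-7-5p for each count of miR-7-1-3p, and this ratio gave exact permutation p-values of 0.2 between HIF1α/HIF2α-KO and hypoxic control cells and 0.7 between hypoxia and normoxia.

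The interaction is the effect of losing HIF1α in cells that also lacked HIF2α minus its effect in cells that had HIF2α. It was 0.11 for miR-671-3p (adjusted p = 0.863 in edgeR) and 0.37 for miR-7-5p (adjusted p = 0.836 in edgeR) on the log2 scale, and 0% of miRNAs passed, with 10.5% at an unadjusted p under 0.05. For miR-671-5p it was -0.54 (standard error 0.34) as a description, and -0.23 without replicate 2 of HIF2α-KO.

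The members were not alike across the 15 libraries. Pearson's r of log2 levels was -0.23 between the strands of miR-671, -0.23 between miR-671-5p and miR-7-5p, and -0.28 between miR-671-3p and miR-7-5p. Spearman's rho, which uses ranks, was 0.032, -0.38 and -0.31 for these pairs. The miRNAs most like miR-671-5p among those tested were miR-30d-5p (r = 0.82), miR-425-3p (r = 0.81) and miR-887-3p (r = 0.80). For miR-671-3p they were miR-125a-3p (r = 0.94), miR-191-3p (r = 0.90) and miR-23b-5p (r = 0.90), and for miR-7-5p miR-548e-3p (r = 0.87), miR-1278 (r = 0.85) and miR-186-5p (r = 0.81). By ranks the miRNAs named for miR-7-5p were less alike to it, with a rho of 0.56, 0.71 and 0.54. In the same order rho was 0.72, 0.81 and 0.79 for miR-671-5p and 0.92, 0.92 and 0.825 for miR-671-3p. These correlations share library, depth and scaling, and are descriptions.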

How the data were processed

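The authors deposited, for each library, raw counts of reads on each mature miRNA, which are whole numbers and not normalized. The labels name HISAT2, StringTie and DESeq2 without versions, and the miRNA annotation and build of the counting are not given in the sources used here. The study names quantile normalization by limma, a step not in the counts. Samples were grouped by genotype, oxygen and replicate in their labels. No replicates were copies of one another (smallest chi-square per degree of freedom 49.3). Counts were fitted with edgeR 4.0.16 in R 4.3.3 (TMM, filterByExpr, all 15 libraries, quasi-likelihood test, Benjamini-Hochberg over 562 miRNAs, threshold 0.05). CPM and ratios of counts were compared with two-sided exact permutation tests. The script was tested on simulated data. Alternatives used limma 3.58.1, DESeq2 1.42.0, other scalings and filters, the miR-126 sets as a covariate, the replicate block, a GC correction (loess, span 0.75, 91.3% of miRNAs with a GC value) and each library left out. Members, lists and the miR-126 division were chosen with earlier results of these data known. Named miRNAs are the members, the other strands and seed relatives, and the 3 miRNAs with the highest r to each member. Gene positions came from GENCODE v29 on GRCh38. miR-7-2-3p was not analysed here. The liver marker miR-122-5p was not found by that name among the miRNAs counted.
The other marker lists summed to 0.33 to 2.58 CPM (miR-375-3p), 4038 to 11559 CPM (neuron, 4 of 4 found), 4.45 to 22.8 CPM (blood, 5 of 5), 37.5 to 116 CPM (epithelial, 5 of 5) and 1.63 to 45.1 CPM (muscle, 3 of 3).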

Additional observations from a re-analysis of the deposited data

Results flagged for a closer look

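miR-7-1-3p was the 1 result in which all 3 libraries lay below the reference mean on one background and all 3 above it on the other. Loss of HIF2α went with lower levels in all 3 libraries where HIF1α was present (mean log2 difference -0.30) and with higher levels in all 3 where HIF1α was absent (0.26), against the mean of the respective reference group, a difference of -0.56 between the effects. The interaction term of edgeR, 0.55 (standard error 0.24), had an unadjusted p under 0.05 and an adjusted p of 0.439 in edgeR, so the difference between the backgrounds did not pass. Single libraries overlapped in each comparison. HIF1α/HIF2α-KO replicate 2 (17.2 CPM) was below HIF1α-KO replicates 1 and 2 (17.4 and 17.5 CPM). HIF2α-KO replicate 2 (23.6 CPM) was above hypoxic control replicate 2 (22.9 CPM). With CPM by library totals neither pair of groups overlapped, and the share of all miRNAs without overlap by library totals is not given here. Library totals moved the median of all miRNAs by -0.14 on the log2 scale between HIF2α-KO and hypoxic control cells. Between HIF1α/HIF2α-KO and HIF1α-KO cells they moved it by 0.020. HIF1α/HIF2α-KO cells differed from HIF1α-KO cells by 0.27 on the log2 scale (adjusted p = 0.517 in edgeR). The share of all miRNAs that changed direction in this way is not given here. Groups of 3 libraries were not tested for outlying samples.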

How the results depend on the processing

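Of 432 alternative fits of the 23 tested results, 1 passed. It was that of miR-671-3p in HIF2α-KO against hypoxic control cells without replicate 1 of HIF2α-KO (-0.68). The share of all miRNAs that passed without that library is not given here. Library totals moved the median of all miRNAs by -0.18 to 0.20 on the log2 scale. The direction of miR-7-5p depended on the setting in 4 comparisons and in the interaction. From normoxia to hypoxia it was -0.52 with the miR-126 sets as a covariate, -0.41 with the GC correction and -0.40 with that correction and the replicate block. In HIF2α-KO against control cells these settings gave 0.26, 0.30 and 0.28. In HIF1α-KO against control cells it was -0.083 in limma and -0.040 with the covariate. With the GC correction, alone or with the block, it was -0.071 in both fits between HIF1α/HIF2α-KO and HIF2α-KO cells, and -0.16 and -0.14 for the interaction. miR-671-3p between HIF1α/HIF2α-KO and HIF2α-KO cells was 0.17 with library totals, 0.061 without a filter on low counts and 0.12 with the GC correction, with or without the block. miR-7-1-3p in that comparison was -0.077 in limma, and -0.14 with the GC correction with or without the block. The causes were not tested. The GC corrections were chosen after seeing the data.

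Leaving out each replicate gave ranges of -0.30 to 0.31 (hypoxia against normoxia), -0.25 to 0.40 (HIF1α-KO), -0.33 to 0.31 (HIF2α-KO), 0.072 to 0.69 (HIF1α/HIF2α-KO) and -0.092 to 0.57 (HIF1α/HIF2α-KO against HIF1α-KO) for miR-7-5p. For miR-671-3p they were -0.68 to -0.25 (HIF2α-KO against control), -0.17 to 0.28 (HIF1α/HIF2α-KO against HIF2α-KO) and -0.059 to 0.39 (interaction). For miR-671-5p in HIF1α/HIF2α-KO cells the range was -0.0035 to 0.29, for miR-7-1-3p between HIF1α/HIF2α-KO and HIF2α-KO cells -0.082 to 0.17, and for the miR-7-5p to miR-7-1-3p ratio from normoxia to hypoxia -0.53 to 0.19.

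The replicate numbers gave no consistent sign of pairing between libraries, which does not show how the libraries were prepared. Among 30 pairs of libraries with the same number, deviations from the group means correlated between -0.62 and 0.55, and 9 were over 0.1. The replicate block gave -0.00091 for miR-7-5p in HIF1α-KO against control cells and kept each other tested result in its direction and on its side of the threshold.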
